A study of Homo sapiens with 11 samples.

Results

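The aldehyde dehydrogenases described here are 10 human genes chosen by name: ALDH1A1, ALDH1A2, ALDH1A3, ALDH1B1, ALDH1L1, ALDH2, ALDH3A1, ALDH3A2, ALDH3B1 and ALDH7A1. They were read by 17 of the 42405 probes on the array, and 20249 genes were named in all. In the A549 libraries labelled TRIM58-WT, ALDH3A1 was 17.1-fold lower than in the A549 mock libraries, while no change was called for the other 7 members that could be tested, where 7.93% of all genes tested were called. The lines themselves differed more widely, with ALDH1A1 and ALDH3A1 bright in A549 and, by their brightest probes, not well above background in HCC827, and with ALDH1A3 higher in HCC827.

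RNA came from A549 and HCC827, long-established cell lines from human lung adenocarcinomas (LADC), and was hybridised in 1 colour to 11 Agilent expression arrays. All cells had been infected with a retrovirus made from the vector pMXs-Neo and selected with G418, so the controls carried the vector and the selection too. A549 mock (empty vector) was represented by 3 replicates on 4 arrays, A549 TRIM58-WT (vector with FLAG-tagged wild-type TRIM58, a ubiquitin ligase) by 3 replicates, and HCC827 mock and HCC827 TRIM58-WT by 2 replicates each. The methods state that clones were isolated after selection. For a growth assay the paper names A549 clones and crude HCC827 transfectants, without saying whether the arrays used the same cells. The labels number the control and TRIM58-expressing cells without saying whether a number is a clone or a culture. The p-values therefore measure only the spread between these samples, which may differ in kind between the lines. The labels give A549 mock arrays 1-1 and 1-2 the same control cell, and their mean was used as mock replicate 1. No age, treatment or time point is given for any group.

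Aldehyde dehydrogenases oxidise aldehydes to carboxylic acids with NAD+ or NADP+ as the electron acceptor. Some make retinoic acid from retinaldehyde, some clear acetaldehyde in mitochondria, and others remove aldehydes released by lipid peroxidation or by the breakdown of amino acids. Activity of the family, in particular of ALDH1A1, ALDH1A3 and ALDH3A1, is widely used to mark subpopulations of lung cancer cells.

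The start regions of ALDH1A1 and ALDH1A3 are shown because these enzymes share a substrate and had opposite levels in the lines. Both windows are RefSeq sequence of build GRCh38.p14, from 250 bases before to 50 bases after a transcription start, read 5′ to 3′ along the gene, and capitals mark each CpG dinucleotide. The ALDH1A1 window lies at chr9:72953004-72953303 on the minus strand and the ALDH1A3 window at chr15:100879581-100879880 on the plus strand.
ALDH1A1: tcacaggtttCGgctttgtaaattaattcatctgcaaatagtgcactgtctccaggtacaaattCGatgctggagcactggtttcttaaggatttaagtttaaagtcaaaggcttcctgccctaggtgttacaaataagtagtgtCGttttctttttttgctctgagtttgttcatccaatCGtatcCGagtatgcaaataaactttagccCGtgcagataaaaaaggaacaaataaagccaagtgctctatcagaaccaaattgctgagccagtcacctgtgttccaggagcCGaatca
ALDH1A3: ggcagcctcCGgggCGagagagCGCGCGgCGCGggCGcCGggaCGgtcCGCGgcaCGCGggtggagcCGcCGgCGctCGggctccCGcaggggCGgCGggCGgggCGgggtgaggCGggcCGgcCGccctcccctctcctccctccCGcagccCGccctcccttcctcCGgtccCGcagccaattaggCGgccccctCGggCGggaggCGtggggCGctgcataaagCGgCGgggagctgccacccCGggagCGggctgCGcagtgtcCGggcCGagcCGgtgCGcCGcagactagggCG
The ALDH1A3 window held 46 CpG dinucleotides and 81.7% G or C, and 97.1% of all 35116 windows of this length held fewer CpG. The ALDH1A1 window held 7 CpG dinucleotides and 40.3% G or C, and 36.8% of windows held fewer. The median window held 14. Of the motifs searched on both strands, GGGCGG occurred 6 times in the ALDH1A3 window and not in the ALDH1A1 window, against 45.0% of all windows holding it at least once. CCAAT occurred once in each of them and in 34.6% of all windows, and GCGTG occurred 2 times for ALDH1A3 and not for ALDH1A1, against 36.5% of windows. Neither window held TGACNNNGC or AGGTCA, which were in 13.3% and 13.8% of windows, or TATAAA, which was in 4049 of the 35116. A match of GGGCGG can share an end G with one of GCGTG, and TGACNNNGC can overlap AGGTCA read from the opposite strand. RefSeq windows were matched for 8 of the 10 members, with ALDH2 and ALDH3A1 not among them. Over the 12 windows of these members the CpG count ran from 1 in 1 of 2 windows of ALDH1A2 to the 46 of ALDH1A3. DNA methylation was not measured on these arrays.

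All levels below are log2 of the spot signal after the scanner software had subtracted background, minus the 75th percentile of the array, so that 0 is the signal which 75% of probes lie under. A level is comparable between arrays for 1 probe, and not between probes. Arrays had 75th percentile signals between 56.6 and 125, the lowest share of probes well above background was 40.1%, and no spot was saturated. The dimmest arrays were A549 mock 3 and A549 TRIM58-WT 2 and 3, at 56.6 to 62.5. Slide 1 held A549 mock 1-1, mock 2 and TRIM58-WT 1, and slide 2 held A549 mock 1-2, mock 3 and TRIM58-WT 2 and 3. A change within slide 1 thus rests on 1 TRIM58-WT array. Mock arrays 1-1 and 1-2 share a control cell, so the slides are not independent. The TRIM58 probe was well above background on 1 array only, the library labelled A549 mock 3 (−0.71), and at −5.64 to −4.63 on the other 10. The construct carries the coding sequence, and where the probe lies on the transcript was not determined here. A dim probe therefore does not check the TRIM58-WT labels. The signal sets the library labelled A549 mock 3 apart from the other mock arrays. Whether it comes from a construct or from the cells' own gene was not determined, so it does not check that label either. Arrays were also compared over the 20616 probes well above background on all arrays of at least 1 group. There the library labelled A549 mock 3 differed from the other mock arrays with an SD of 0.80 to 0.91, against 0.35 to 0.50 among those. It lay nearer to A549 TRIM58-WT 2 and 3 (0.77 and 0.76). A549 TRIM58-WT 2 and 3 differed with an SD of 0.34, as little as mock arrays 1-1 and 1-2 of 1 control cell (0.35), and TRIM58-WT 1 differed from both with 0.91 and 0.94. Results that rest on these libraries are therefore also given without them.

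Markers of the labelled cell type were present in part. Of 8 epithelial genes, all were well above background on every HCC827 array, 7 on every A549 mock array and 4 on every A549 TRIM58-WT array. The keratin gene KRT19 fell at least 723-fold from A549 mock to TRIM58-WT (limma adjusted p = 0.000151). The summed linear level of the 8 genes was 1511 to 2304 times the 75th percentile on A549 mock arrays and 1096 to 1720.4 on A549 TRIM58-WT arrays. Of 8 mesenchymal genes, 2 of the 3 that could be tested were called higher in A549 TRIM58-WT, with a summed level of 119 to 393 against 27.7 to 190 in mock, and COL1A2, COL3A1, PDGFRB and THY1 were well above background on no A549 array. The 4 epithelial calls, all lower, became 1 (KRT19) without mock 1, mock 2, TRIM58-WT 2 or TRIM58-WT 3, with adjusted p of up to 0.120 for the others. The 2 mesenchymal calls, CDH2 and COL1A1, became 0 without mock 1, mock 2 or TRIM58-WT 3 and 1 without TRIM58-WT 1 or TRIM58-WT 2, with adjusted p of up to 0.169. Of 4 lung lineage genes, NKX2-1 and the surfactant gene SFTPB were well above background on no A549 array, NAPSA on 1 A549 mock and 1 A549 TRIM58-WT array, and SFTPC on 1 and 2. The 4 endothelial genes were so on no array at all. Of the leukocyte genes, CD3E was on no array, PTPRC on at least 1 array of every group, and CD14 on all A549 mock arrays, 1 of 3 A549 TRIM58-WT arrays and all HCC827 arrays. CD14 changed by −3.06 from A549 mock to TRIM58-WT (adjusted p = 0.00153) and was called with any 1 replicate left out. The part of these marker changes in the values below was not tested. In bulk RNA, fewer cells of a type and less RNA per cell cannot be told apart.

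**Figure D1:**
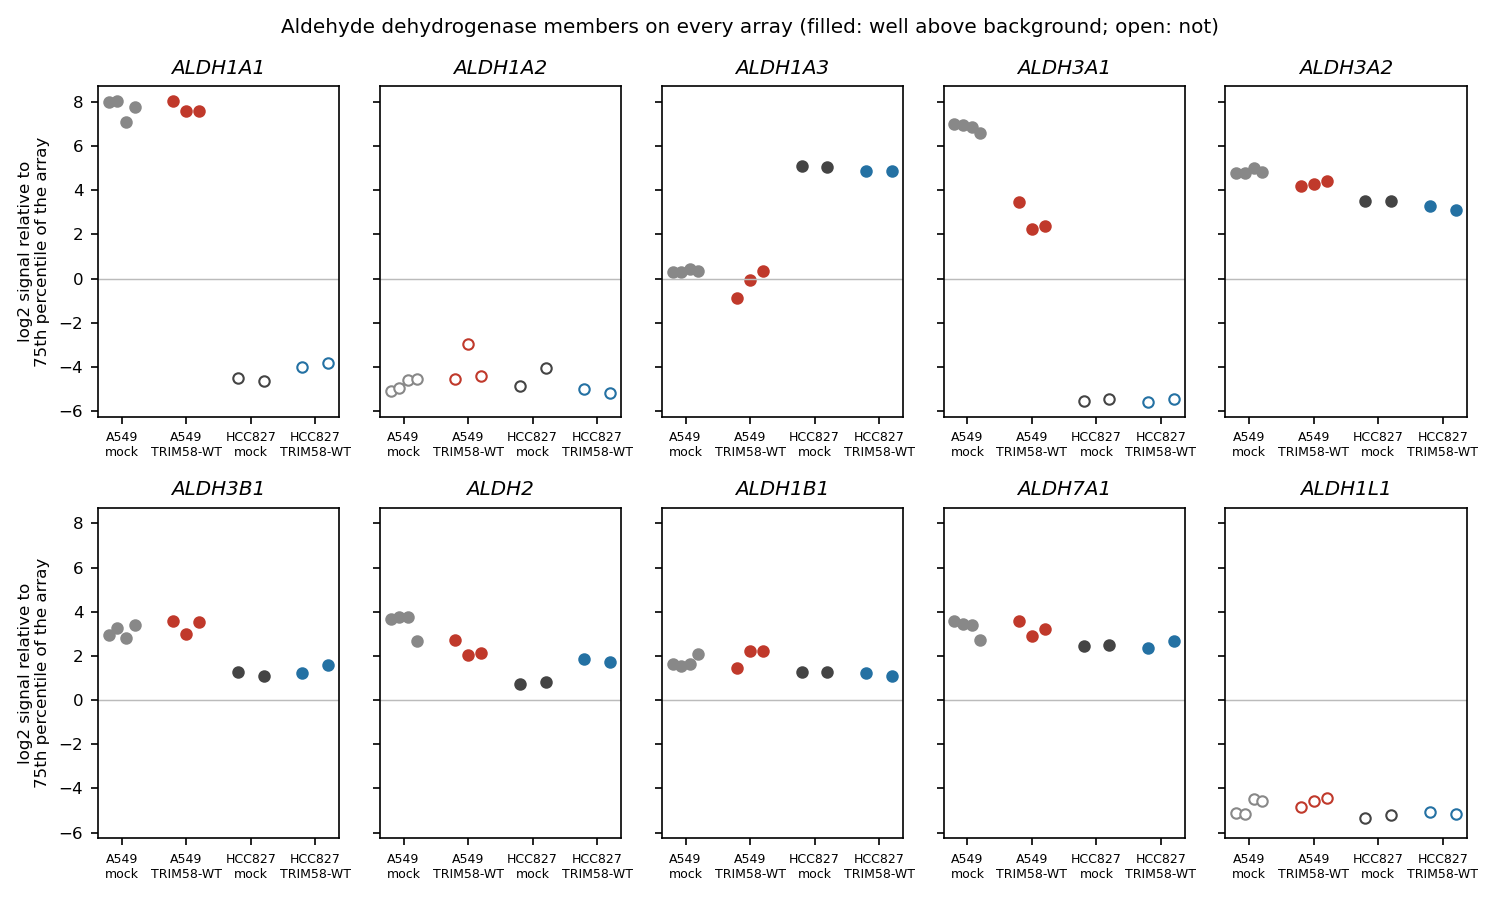
Levels of the 10 members on each of the 11 arrays, as log2 signal relative to the 75th percentile of the array, with 1 point per array, grouped by label (A549 mock has 4 arrays from 3 replicates). Filled points were well above background and open points were not; ALDH3A1 falls in the A549 TRIM58-WT arrays, ALDH1A1 and ALDH3A1 are open on all HCC827 arrays, ALDH1A3 is higher in HCC827, and heights are not comparable between panels.

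Of the retinaldehyde dehydrogenases, which make retinoic acid, ALDH1A1 and ALDH1A3 were measured, and no array had ALDH1A2 well above background. The ALDH1A1 level was 7.99 and 8.02 on mock arrays 1-1 and 1-2, 7.08 on mock 2 and 7.76 on the library labelled mock 3 of A549, while A549 TRIM58-WT arrays read 8.04, 7.57 and 7.60. Both A549 groups overlapped, and every one of the 7 arrays lay far above the HCC827 arrays, which read −4.50 and −4.64 for mock and −3.99 and −3.84 for TRIM58-WT and were not well above background. The A549 change was 0.12 on the log2 scale (95% confidence interval −0.56 to 0.81, limma adjusted p = 0.829). Its second probe changed by −0.44 (95% confidence interval −1.59 to 0.72) and was not called either, so a decrease of over 2-fold lies outside the interval of the brightest probe only.

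The difference in ALDH1A1 between the lines was the widest bound among the members. A549 mock averaged 7.61 ± 0.48 (SD, n = 3) and HCC827 mock −4.57 ± 0.10 (SD, n = 2). Since the HCC827 signal was not well above background, the ratio is a bound, taken against the higher of the lowest signal well above background on an array and the probe's own signal. ALDH1A1 was at least 1840-fold higher in A549 mock (limma adjusted p = 4.32e-05), and at least 336-fold by its second probe. The ALDH1A1 change in HCC827 was not tested because no HCC827 array of that probe was well above background. On 1 HCC827 TRIM58-WT array the second probe was, at −2.65.

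ALDH1A3 had the opposite pattern between the lines. Its level was 5.11 and 5.06 on the HCC827 mock arrays and 4.89 on both HCC827 TRIM58-WT arrays. The A549 mock arrays read 0.30, 0.28, 0.45 and 0.35, and the A549 TRIM58-WT arrays −0.87, −0.05 and 0.34. No A549 array came within 4 log2 units of an HCC827 array, and the A549 groups overlapped through TRIM58-WT 3. HCC827 mock exceeded A549 mock by 26.4-fold (log2 difference of A549 minus HCC827 −4.72, SE 0.16, limma adjusted p = 6.54e-05), with −4.71 on slide 1 alone. The TRIM58-WT changes of −0.56 in A549 (adjusted p = 0.337) and −0.20 in HCC827 (adjusted p = 0.422) were not called by limma. The A549 value was −0.22 without TRIM58-WT 1, and −1.24 and −0.17 within slides 1 and 2.

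Among the ALDH3 enzymes, ALDH3A1 oxidises aromatic and medium-chain aldehydes in the cytosol and is known as a target of the aryl hydrocarbon receptor. Its level was 6.99, 6.97, 6.85 and 6.58 on mock arrays 1-1, 1-2, 2 and the library labelled mock 3 of A549, and 3.48, 2.25 and 2.40 on the TRIM58-WT arrays. The groups were separated by more than 3 log2 units, the TRIM58-WT arrays were still well above background, and TRIM58-WT 1 was the highest of its group. The mean fell from 6.80 ± 0.20 to 2.71 ± 0.67 (SD, n = 3 each). The log2 change was −4.10 (SE 0.35, 95% confidence interval −4.93 to −3.26, limma adjusted p = 0.00238), a 17.1-fold decrease. The same TRIM58-WT arrays had the lower epithelial and higher mesenchymal marker levels given above, and their part in the ALDH3A1 decrease was not tested.

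The second ALDH3A1 probe fell 19.5-fold (log2 change −4.29, limma adjusted p = 0.00126), from 5.6 to 6.10 on the mock arrays to 1.19 to 2.20 on the TRIM58-WT arrays. Within slides, the decrease of the brightest probe was −3.45 on slide 1 (1 TRIM58-WT array against 2 mock arrays) and −4.45 on slide 2 (2 against 2). The second probe gave −3.88 and −4.5. The checks that follow were run on the brightest probe only. Its decrease lay between −4.48 and −3.87 with any 1 replicate left out, each time called by limma. Without the library labelled mock 3 it was −4.21 (adjusted p = 0.00364), and with TRIM58-WT 2 and 3 averaged to 1 replicate −3.90 (adjusted p = 0.0167). The methods' t-test, which they name for comparisons of groups in general and not for the arrays, gave on the same values an adjusted p of 0.131, at which no member was called, while it called 24 of 16919 probes in all and 3252 had an unadjusted p under 0.05.

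In HCC827 the ALDH3A1 level was −5.55 and −5.46 for mock and −5.58 and −5.46 for TRIM58-WT, with no array well above background on either probe. ALDH3A1 was at least 1050-fold higher in A549 mock than in HCC827 mock (limma adjusted p = 2.97e-05), and at least 569-fold by the second probe. The change differed between lines by −4.08 on the log2 scale (SE 0.48, limma adjusted p = 0.00423). The HCC827 side of that contrast is background signal, where a decrease could not have been measured.

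ALDH3A2, which oxidises long-chain fatty aldehydes at the endoplasmic reticulum, had no called change within a line. Its level was 4.79, 4.77, 4.99 and 4.82 on the A549 mock arrays, 4.19, 4.30 and 4.40 for A549 TRIM58-WT, 3.52 and 3.53 on HCC827 mock and 3.27 and 3.09 on HCC827 TRIM58-WT. TRIM58-WT arrays were below mock arrays without overlap in both lines. In HCC827, with 2 arrays against 2, the groups of ALDH1A3, ALDH1B1 and ALDH2 did not overlap either, and none of these was called. Those of ALDH3B1 and ALDH7A1 overlapped. The share of all genes without overlap was not computed. The A549 change of −0.57 (SE 0.15, 95% confidence interval −0.94 to −0.20) had a limma adjusted p of 0.0745 and was under 2-fold, and the HCC827 change of −0.34 had 0.267. A549 mock was 2.53-fold above HCC827 mock (adjusted p = 0.00245), and 4.09-fold by the second probe.

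ALDH3B1, which acts on aldehydes from lipid peroxidation, was read by 3 probes that ran the same way. On the brightest, A549 mock arrays lay at 2.93, 3.28, 2.82 and 3.38 and A549 TRIM58-WT arrays at 3.56, 3.01 and 3.54. HCC827 read 1.28 and 1.11 for mock and 1.24 and 1.60 for TRIM58-WT, so that within each line the groups overlapped and between the lines they did not. A549 mock was 3.75-fold above HCC827 mock (limma adjusted p = 0.00219), with 3.8-fold and 4.67-fold by the other probes. The TRIM58-WT changes were 0.27 in A549 (adjusted p = 0.531) and 0.23 in HCC827 (adjusted p = 0.508).

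ALDH2, the mitochondrial enzyme that clears acetaldehyde after alcohol oxidation, had changes of over 1 log2 unit in opposite directions in the lines, neither of them called. In A549 the level was 3.66, 3.77, 3.77 and 2.67 on mock arrays 1-1, 1-2, 2 and the library labelled mock 3, and 2.72, 2.03 and 2.15 on the TRIM58-WT arrays. In HCC827 it was 0.72 and 0.83 for mock and 1.87 and 1.72 for TRIM58-WT. The HCC827 groups did not overlap, whereas the library labelled A549 mock 3 fell among the TRIM58-WT values, just under TRIM58-WT 1.

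The ALDH2 change was −1.08 in A549 (SE 0.36, 95% confidence interval −1.94 to −0.23, limma adjusted p = 0.119) and 1.02 in HCC827 (SE 0.14, 0.64 to 1.40, adjusted p = 0.0687), and neither was called. The difference between both changes was −2.11 (SE 0.50, −3.24 to −0.97), also not called at an adjusted p of 0.0585. Without the library labelled mock 3 the A549 change was −1.44 (adjusted p = 0.0218) and the difference −2.46 (adjusted p = 0.00432). Without TRIM58-WT 1 they were −1.29 (adjusted p = 0.0817) and −2.32 (adjusted p = 0.0341). Without mock 1, mock 2, TRIM58-WT 2 or TRIM58-WT 3 the A549 change was weaker, −1.01 to −0.89, with limma adjusted p of 0.316 to 0.361. The HCC827 change was 0.94 to 1.1 with any 1 replicate left out. Within slides 1 and 2 the A549 change was −1.0 and −1.13. A549 mock was 6.10-fold above HCC827 mock (adjusted p = 0.00463).

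ALDH1B1, a mitochondrial relative of ALDH2, had no called change in any comparison. Its probe read 1.64, 1.53, 1.65 and 2.08 on A549 mock arrays, 1.45, 2.23 and 2.23 on A549 TRIM58-WT arrays, 1.25 and 1.27 on HCC827 mock and 1.24 and 1.09 on HCC827 TRIM58-WT. The change was 0.20 in A549 (95% confidence interval −0.47 to 0.87, limma adjusted p = 0.708) and −0.10 in HCC827 (−0.46 to 0.27, adjusted p = 0.705). The mock groups differed by 0.51 (adjusted p = 0.108).

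ALDH7A1, or antiquitin, acts in lysine breakdown and was well above background on every array by its brightest probe. It read 3.59, 3.46, 3.38 and 2.74 on A549 mock, 3.58, 2.91 and 3.20 on A549 TRIM58-WT, 2.44 and 2.50 on HCC827 mock and 2.38 and 2.67 on HCC827 TRIM58-WT. The groups of each line overlapped, with changes of 0.01 in A549 (95% confidence interval −0.66 to 0.69, limma adjusted p = 0.983) and 0.06 in HCC827 (adjusted p = 0.843). Genes of chromosome 5, where ALDH7A1 lies, had a median A549 change of −0.48 over 490 genes. The probes disagreed on the line difference: 0.75 and not called by the brightest (adjusted p = 0.0819), and at least 3.83-fold higher in A549 mock by a dimmer one (adjusted p = 0.00123). The remaining probe was well above background nowhere.

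ALDH1L1, a folate enzyme that oxidises formyltetrahydrofolate, was well above background on no array, with levels of −5.33 to −4.45. ALDH1A2, the retinaldehyde dehydrogenase known from the embryo, read −5.18 to −2.95. The lowest signals well above background on an array lay at −3.49 to −2.46, so amounts under that could not be seen for either gene.

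**Figure D2:**
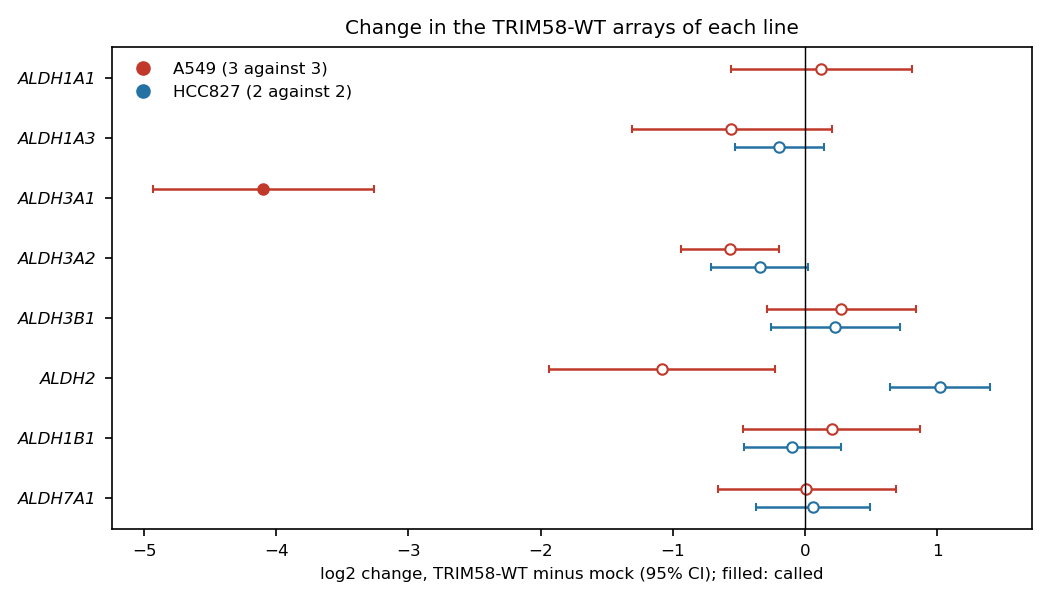
Change of each member that could be tested, as log2 of TRIM58-WT minus mock with its 95% confidence interval from limma, in A549 (3 replicates against 3) and HCC827 (2 against 2). Filled points were called (adjusted p under 0.05 and at least 2-fold); ALDH3A1 in A549 at −4.10 is the single one, and ALDH2 lies at −1.08 in A549 and at 1.02 in HCC827.

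Counted over the family, 8 of the 10 members could be tested in A549 and 1 was called, lower. Of all 11179 genes tested there 7.93% were called, 3.88% as higher and 4.05% as lower. The median change of the 8 members was −0.27, against 0.03 for all genes tested. In HCC827, limma called 0 of 6 tested members, where 1.07% of 12165 genes were called, and the methods' t-test called none. By limma 1 member (ALDH2) had an unadjusted p under 0.05, as did 3970 of all 19542 probes tested. The difference between changes was called for 1 of 8, lower, against 4.60% of 12809 genes, 2.49% as lower. A count of 1 among 8 is near the background in both comparisons.

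Between the mock groups 6 of 8 tested members were called, 5 higher in A549 and 1 higher in HCC827, where 31.9% of 12382 genes were called (15.5% higher in A549 and 16.4% higher in HCC827). The median difference of the 8 was 1.62, against −0.06 for all genes. Of these 6, ALDH1A1, ALDH1A3, ALDH2, ALDH3A1, ALDH3A2 and ALDH3B1, each remained called with any 1 replicate left out. All HCC827 arrays were on slide 1, and the slide 1 differences of the other members called higher in A549 and measured in both lines were 2.94 for ALDH2, 1.68 for ALDH3B1 and 1.37 for ALDH3A2.

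**Figure D3:**
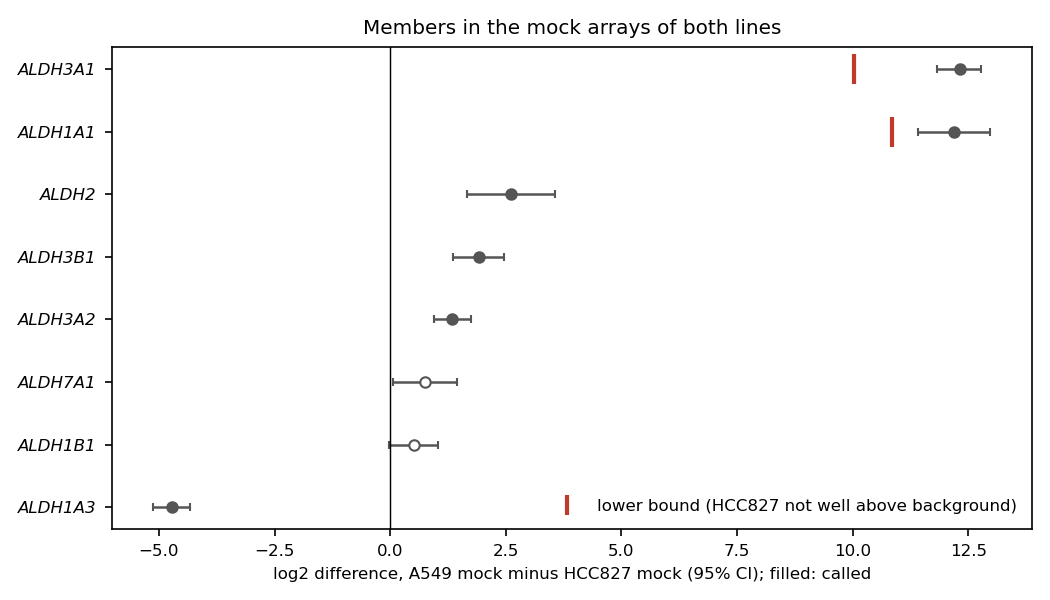
Difference between the mock groups for each member that could be tested, as log2 of A549 mock (n = 3) minus HCC827 mock (n = 2) with its 95% confidence interval, and filled points where called. Red ticks are the lower bounds of 1050-fold and 1840-fold for ALDH3A1 and ALDH1A1, whose HCC827 signal was not well above background, and ALDH1A3 at −4.72 is the one member called higher in HCC827.

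Of 9 further aldehyde dehydrogenase genes, 8 were named on the array and 7 could be tested in A549. Limma called none of these 7 between TRIM58-WT and mock, and none had an unadjusted p under 0.05; the methods' t-test called none either, and their median change was 0.26. In HCC827 none of 6 was called or had an unadjusted p under 0.05. Between the mock groups 1 of 7 was called, ALDH1L2, a mitochondrial folate enzyme, at least 2.30-fold higher in A549 (adjusted p = 0.0299). That call was lost without A549 mock 1 (0.0543), HCC827 mock 1 (0.133) or HCC827 mock 2 (0.138).

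Among other enzymes that reduce or oxidise aldehydes and alcohols, the changes called in A549 TRIM58-WT were all decreases. Of 23 listed genes 14 could be tested and 5 were called, all lower, against 4.05% of genes at large. The list median was −0.25. A limma unadjusted p under 0.05 was reached by 7 of the 14, among them ADH5 with an increase of 0.48, and by 4275 of all 16919 probes tested. The 5 called genes are aldo-keto reductases, which reduce carbonyl groups with NADPH. AKR1C4 changed by −2.39 (from 2.25 ± 0.16 to −0.13 ± 0.82, SD, n = 3 each, adjusted p = 0.0202), AKR1C1 by −2.05 and AKR1C3 by −1.65. AKR1B15 and AKR1B10 changed by −1.21 and −1.16. The AKR1C genes are near copies of each other, as are AKR1B10 and AKR1B15, so these probes may read related transcripts and the 5 calls are not separate evidence. All 5 remained called without the library labelled mock 3 or TRIM58-WT 1. None remained called by limma without mock 1, mock 2, TRIM58-WT 2 or TRIM58-WT 3, with changes of −2.39 to −1.09 and adjusted p of 0.0621 to 0.145. With TRIM58-WT 2 and 3 averaged to 1 replicate, 0 of the 5 were called, against 1 of the 5 retinoid genes and 0 of the 2 aryl hydrocarbon receptor genes called below, and the methods' t-test called 0 in each of these lists.

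In HCC827 none of 13 tested genes of that list was called by limma. An unadjusted p under 0.05 was reached by 5 of them, each with a positive change of 0.47 to 0.92, and by 3970 of all 19542 probes tested. The change differed between lines for 4 of 15 tested genes, where 4.60% of genes at large were called. These were AKR1C4 (−3.13), AKR1C1 (−2.97), AKR1B10 (−1.63) and CBR3 (−1.49), a carbonyl reductase. AKR1C1 and AKR1C4 were not tested in HCC827, where neither mock array had them well above background. Their contrasts exceed their A549 changes of −2.05 and −2.39. The HCC827 part was measured against that dim mock signal and has no exact size. All 4 calls were lost without HCC827 mock 1 or HCC827 mock 2, with adjusted p of 0.0605 to 0.117. Between the mock groups 9 of 15 were called, where 31.9% of genes at large were, with 8 of the 9 higher in A549, and AKR1C1 was at least 2050-fold higher. The exception was ADH5, the formaldehyde-clearing alcohol dehydrogenase, with a difference of −1.20 (−0.98 and adjusted p = 0.104 without HCC827 mock 2).

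Genes that carry, make, break down or sense retinoids changed in both directions. In A549, 5 of 13 tested genes were called, 3 lower and 2 higher, where 4.05% and 3.88% of genes at large were, with a median change of 0.08. The plasma retinol carrier RBP4 changed by −2.81 (adjusted p = 0.000943) and RDH10, which makes the substrate of the ALDH1A enzymes from retinol, by −2.09 (adjusted p = 0.0236). DHRS9, another retinol-oxidising enzyme, was at least 6.72-fold lower. CYP26A1, which degrades retinoic acid, was at least 3.87-fold higher in TRIM58-WT, and the retinoic acid receptor RARA changed by 1.57 (adjusted p = 0.0223). RBP4 was called with any 1 replicate left out. The other 4 were not called without mock 1, mock 2, TRIM58-WT 2 or TRIM58-WT 3, where their changes lay between −3.74 and 2.66 and the highest adjusted p was 0.156.

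In HCC827 limma called none of 11 tested retinoid genes, and 3 had an unadjusted p under 0.05, as did 3970 of all 19542 probes tested. The change differed between lines for 2 of 14 tested genes, RBP4 (−3.93) and CYP26A1 (3.74), where 4.60% of genes at large were called. RBP4 was not tested in HCC827, where neither mock array had it well above background. Its contrast exceeds its A549 change of −2.81. The HCC827 part was measured against that dim mock signal and has no exact size. The CYP26A1 call was kept only without A549 mock 3, A549 TRIM58-WT 1 or HCC827 TRIM58-WT 2, and the highest adjusted p without another replicate was 0.102. Between the mock groups 8 of 14 were called, where 31.9% of genes at large were. STRA6, the receptor for RBP4, was higher in A549 (difference 5.85), as were RBP4 and DHRS9, at least 39.8-fold and at least 10.3-fold. CRABP2, which carries retinoic acid to the nucleus, was at least 37.7-fold and CYP26A1 at least 15.1-fold higher in HCC827. The 8 calls became 7 without A549 mock 1, 4 without HCC827 mock 1 and 5 without HCC827 mock 2. Those of DHRS9 and RDH10 (difference −1.98) were lost without HCC827 mock 1 or mock 2, where RDH10 had adjusted p of 0.0800 and 0.0656 and DHRS9 0.0632 and 0.0564.

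Of 8 listed genes of the aryl hydrocarbon receptor pathway, 7 were named on the array and 4 could be tested in A549. Of these 2 were called, both lower, against 4.05% of genes at large, with a list median of −1.08: the receptor AHR itself (−1.49, adjusted p = 0.0465) and the quinone reductase NQO1 (−1.52, adjusted p = 0.0138). AHR lost its call without any replicate but the library labelled mock 3, with changes of −1.60 to −1.29 and a highest adjusted p of 0.180. NQO1 lost its call without mock 1, mock 2, TRIM58-WT 2 or TRIM58-WT 3, with changes of −1.49 to −1.41 and adjusted p of 0.0671 to 0.0795. CYP1A1, the usual target of the receptor, was not well above background on any A549 array. Between the mock groups 4 of 5 tested genes of the list were called, 2 higher in each line, where 31.9% of genes at large were. CYP1A1 (at least 17.7-fold) and TIPARP (difference −1.85) were higher in HCC827 mock. CYP1B1 (difference 3.97) and NQO1 (2.45) were higher in A549 mock, as was ALDH3A1. In HCC827 limma called none of 6, and AHR (−1.19) and CYP1A1 (−1.08) had unadjusted p under 0.05, as did 3970 of all 19542 probes tested. The A549 decreases of AHR and NQO1 were in the same samples as that of ALDH3A1, and their part in it was not tested.

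**Figure D4:**
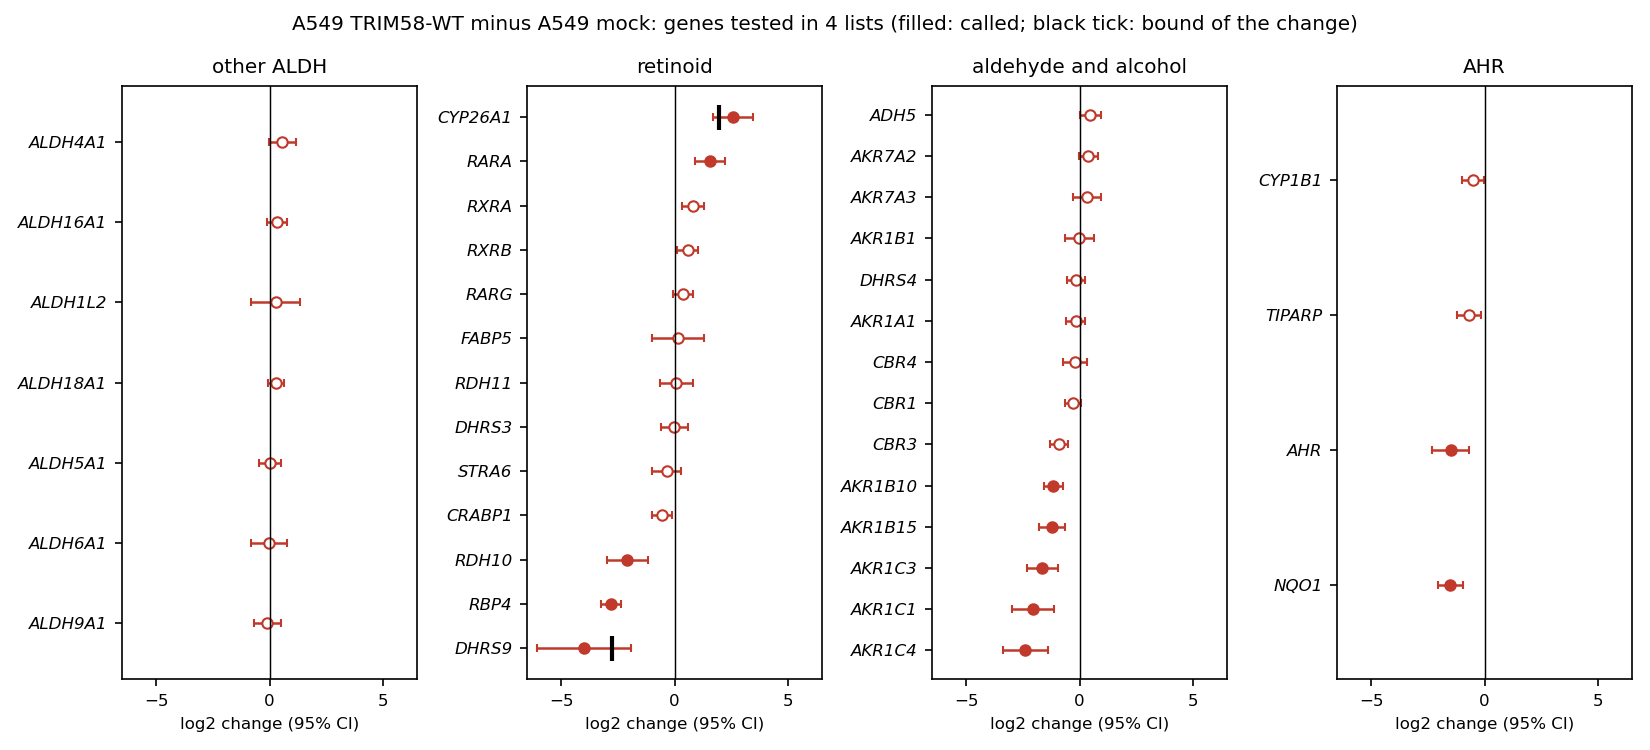
A549 TRIM58-WT minus A549 mock (3 replicates each) for the genes that could be tested among other aldehyde dehydrogenases, retinoid genes, other aldehyde and alcohol enzymes and aryl hydrocarbon receptor (AHR) genes, as log2 change with 95% confidence interval. Filled points were called and black ticks mark bounds; none of 7 other aldehyde dehydrogenases was called, and the 5 called aldehyde and alcohol enzymes all lie below 0.

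The genes whose levels ran most like those of the members with the widest spread of group means, ALDH3A1 and ALDH1A1, were picked by Pearson correlation over the 10 replicates among 12794 genes. For ALDH3A1 these were EVA1C (0.999), TBX18 (0.998), S100A4 (0.997), HMSD (0.995) and ANKRD20A12P (0.995). For ALDH1A1 they were APIP (0.999), SIK1 (0.998), GNG11, TRIM4 and UGT2B7 (0.997 each). As many as 354 and 730 genes passed 0.95. All points share 2 lines, and a gene that separates them can score high by that alone, though not every such gene does. ALDH2, called between the mock groups, had 0.78 with ALDH1A1. Within the family the highest and lowest coefficients, 0.98 for ALDH1A1 with ALDH3B1 and −0.99 for ALDH1A1 with ALDH1A3, describe the same separation. The spread of both ALDH1A1 and ALDH3A1 rests on HCC827 signals at background, which set no exact size.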

How the data were processed

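RNA of 11 arrays was labelled with Cy3 and scanned by the authors, and the deposited files hold an intensity for each spot from Agilent Feature Extraction, in a later version per the file headers than the 10.7 of the submitters' processing notes, after background subtraction and detrending within the array and not yet scaled between arrays. A second deposited table, of the authors' log2 values relative to a baseline per probe, served as an alternative. Here outlier and control spots were left out, spots of a probe were averaged, and from each log2 value the array's 75th percentile was subtracted. RefSeq accessions named 27241 of the 28302 probes that had one. The scanner software's flag for signal well above background had to hold for over 0.5 of a probe's spots on an array, and a probe entered a test if 1 of the groups had it so on all arrays. Groups were compared with limma 3.58.1 in R 4.3.3, with Benjamini-Hochberg adjustment over all tested probes. Calls needed an adjusted p under 0.05 and a change of at least 2-fold, apart from the difference between lines, which needed the adjusted p alone. The brightest probe stood for a gene. All members were named. Of the other lists, the plan was to name up to 5 called genes with the largest change per comparison. Between the mock groups the genes named departed from that plan. All called genes of these lists are counted. CBR3 and the marker genes were also named, after their values were seen. Members and lists were chosen with earlier results of these data known. Alternatives covered normalization, background correction, filters, the fit, blocks, the test and each replicate left out. Test steps were tested on simulated data. The number of arrays limits the precision.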

Additional observations from a re-analysis of the deposited data

Results flagged for a closer look

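No group held enough replicates for a test of single outlying samples, since the groups had 2 or 3. Limma's contrast of both changes (A549 minus HCC827, log2) was tested for 8 members and 7 other aldehyde dehydrogenases. It was also tested for 14 retinoid genes, 15 aldehyde and alcohol enzymes and 6 aryl hydrocarbon receptor genes. Of all these, 8 genes were called, where 4.60% of 12809 genes at large were. The value was −4.08 for ALDH3A1, which was not well above background in HCC827. Among retinoid genes it was −3.93 for RBP4 and 3.74 for CYP26A1. Among aldehyde and alcohol enzymes it was −1.63 for AKR1B10, −2.97 for AKR1C1, −3.13 for AKR1C4 and −1.49 for CBR3. It was −1.77 for NQO1. RBP4, AKR1C1 and AKR1C4 were well above background on neither HCC827 mock array. ALDH3A1 and RBP4 were called with any 1 of the 10 replicates left out; each of the other 6 lost its call without 1 or more of them.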

How the results depend on the processing

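The A549 change of ALDH3A1 was −4.48 to −3.85 over all alternatives run and was called under each, except the methods' t-test. In A549, 1 member was called; 2 (ALDH3A1 and ALDH2) were called with both lines in one fit, with slide as a block, and with mock arrays 1-1 and 1-2 as 2 replicates, 0 with the methods' t-test, and 1 to 2 with a replicate left out. In HCC827, 0 became 1 (ALDH2) on probes well above background on every array. For the difference between lines, 1 became 2 (with ALDH2) under a median shift, slide as a block and separate mock arrays, 0 on probes well above background on every array, where ALDH3A1 is not tested, and 1 to 2 with a replicate left out. The line comparison stayed at 4 to 7 called, against 6.

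The replicate numbers were not taken to pair samples, since the deviations of same-numbered A549 samples correlated at 0.50, −0.42 and 0.50 and those of HCC827 at 0.08. With the replicate block, the counts of members called stayed 1 in A549, 0 in HCC827 and 1 for the difference, while calls over all probes moved from 1171 to 1122, from 173 to 0 (3840 at an unadjusted p under 0.05) and from 794 to 322.

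Other counts over all probes past 1.5 times in A549 (1171) were 507 with normexp, 609 without a filter, 673 on probes well above background on every array, 1801 with slide as a block, 24 with the t-test, 333 with TRIM58-WT 2 and 3 averaged, and 301 to 1955 with a replicate left out. A median shift moved the median change of all probes from 0.06 to −0.31 and the share of higher calls from 50.5% to 25.6%. In HCC827 (173) they were 650 with a median shift, 102 with normexp, 0 without a filter (4371 at an unadjusted p under 0.05), 367 on probes well above background on every array, 0 with the t-test (1500) and 0 to 826 with a replicate left out, and the median shift moved the share of higher calls from 32.9% to 46.2%. For the difference (794) they were 526 with a median shift, which moved the share of higher calls from 47.4% to 27.9%, 450 without a filter, 394 on probes well above background on every array, 1681 with slide as a block, 1352 with separate mock arrays, 425 with TRIM58-WT 2 and 3 averaged and 208 to 2083 with a replicate left out. Between the lines (5904) they were 3044 with normexp, 3434 on probes well above background on every array, 3003 with the t-test and 3835 to 6398 with a replicate left out. With a term for the 3 dimmest arrays, chosen after seeing the data, ALDH3A1 changed by −3.85 and ALDH2 by −0.80 (adjusted p = 0.0152).

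Values of members that were not called changed sign in places. In A549, with a median shift, ALDH1A1 was −0.24, ALDH1B1 −0.17, ALDH3B1 −0.10 and ALDH7A1 −0.35; ALDH1B1 was −0.01 with the brightness term, and ALDH7A1 −0.05 with normexp and −0.06 with separate mock arrays. In HCC827, with normexp, ALDH1B1 was 0.02 and ALDH7A1 −0.04. For the difference, ALDH1A1 was 0.01 with normexp, ALDH1B1 −0.10 and ALDH3B1 −0.36 with a median shift, and ALDH7A1 0.04 with TRIM58-WT 2 and 3 averaged. With a replicate left out, ranges that crossed 0 in A549 were −0.14 to 0.32 for ALDH1A1 and −0.22 to 0.17 for ALDH7A1, in HCC827 −0.08 to 0.20 for ALDH7A1, and for the difference −0.14 to 0.22 for ALDH3B1 and −0.28 to 0.11 for ALDH7A1. The cause was not tested.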
